A study of Mus musculus with 16 samples.

Results

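Antisense genes are transcribed from the DNA strand opposite a protein-coding gene, and the ones described here are 759 genes of the mouse whose exons lie over exons of a coding gene while their own start lies away from the outermost start of every coding gene. They were chosen by position alone from a deposited gene annotation of build mm10. An Ensembl gene of biotype antisense on chromosomes 1 to 19 was taken when at least 1 base of its merged exons lay over an exon of a protein-coding gene on the other strand, and when its 5′ end was more than 1000 bases from the 5′ end of every protein-coding gene. Of 2012 antisense genes on these chromosomes, 1065 (52.9%) had such an exon overlap. Of these, 306 started within 1000 bases of a coding start, and the other 759 (37.7% of all 2012, 95% Wilson interval 35.6 to 39.9%) are called remote-start antisense genes here. The name refers to the outermost start of each coding gene, and 167 of the 759 (22.0%) started within 1000 bases of the start of some coding transcript. The whole annotation held 50578 gene models. The values just inside the limit were 1008 bases for Gm16131 (from the start of Ccdc33), 1011 bases for Ptf1aos (Ptf1a) and 1012 bases for Gm19582 (Dgkd). Just outside it were Gm37035 at 991 bases (P2ry1), RP23-327M1.1 at 983 bases (Prmt6) and Gm11695 at 980 bases (Slc16a5).

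The annotation belongs to a study of macrophages grown from mouse bone marrow for 7 days with the growth factor M-CSF at 50 ng per ml and stimulated with lipopolysaccharide (LPS), a bacterial cell wall component. Its 16 libraries comprise RNA-seq of wild-type C57BL/6 cells (3 untreated, 3 LPS), RiboTag RNA from LysM-Cre x RiboTag cells, in which tagged ribosomes are pulled down from cells that expressed the myeloid Cre (2 untreated, 2 after 6 h and 2 after 24 h of LPS), and ribosome profiling of wild-type C57BL/6 cells (2 untreated, 2 LPS). Untreated here means without LPS, and the titles of all the ribosome profiling libraries carry the label CHX. Per-library values and read depth were not used here, so nothing below says whether a gene was transcribed or translated in these cells. The annotation is a complete list of gene models, not a sample with replicates. Differences between groups of genes are therefore given as descriptions without a test, and intervals cover counting error only.

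A natural antisense transcript can pair with the messenger RNA of its partner where their exons overlap, and its transcription can run against that of the partner through the shared DNA. Such RNAs are known to silence imprinted neighbours, as Kcnq1ot1 and Nespas do, to accompany homeobox genes in development, and to lie beside inflammatory genes. Where both strands carry exons, a read can be assigned to 1 of the genes only if the library keeps strand. Many other antisense transcripts begin close to a coding promoter and run away from it.

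Sequences around 6 of the starts hold coding sequence of another gene on the opposite strand. They were picked for their CDS and are not typical. Of the 153 windows whose RefSeq start was within 100 bases of the annotated one, 38 (24.8%) lay in part over opposite CDS. In 14 (9.15%) at least 50% of the bases were opposite CDS, a share that the windows of Il1bos and Slfn5os below do not reach. Each of the 6 sequences is a RefSeq window on the antisense gene's strand, from assembly GRCm38.p6. It runs from 250 bases before to 50 bases after the RefSeq start, and the set was chosen after the values were seen. In the first 5, capitals mark bases that are coding sequence (CDS) of the partner on the other strand. In Il1bos and Tnk2os all of these bases lie before the RefSeq start. Il1bos lies opposite Il1b, the gene of the inflammatory cytokine interleukin 1β, and 49 bases of its window were CDS (chr2:129369652-129369951, plus strand, 5 bases from the annotated start).
Il1bos: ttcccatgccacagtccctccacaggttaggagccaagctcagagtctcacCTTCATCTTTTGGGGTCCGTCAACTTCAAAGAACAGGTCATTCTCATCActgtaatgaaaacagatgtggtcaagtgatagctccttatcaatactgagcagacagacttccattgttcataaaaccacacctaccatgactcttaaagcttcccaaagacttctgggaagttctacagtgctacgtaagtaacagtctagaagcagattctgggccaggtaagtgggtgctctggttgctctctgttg
Tnk2os lies opposite the tyrosine kinase gene Tnk2, with 222 CDS bases in the window (chr16:32668148-32668447, minus strand).
Tnk2os: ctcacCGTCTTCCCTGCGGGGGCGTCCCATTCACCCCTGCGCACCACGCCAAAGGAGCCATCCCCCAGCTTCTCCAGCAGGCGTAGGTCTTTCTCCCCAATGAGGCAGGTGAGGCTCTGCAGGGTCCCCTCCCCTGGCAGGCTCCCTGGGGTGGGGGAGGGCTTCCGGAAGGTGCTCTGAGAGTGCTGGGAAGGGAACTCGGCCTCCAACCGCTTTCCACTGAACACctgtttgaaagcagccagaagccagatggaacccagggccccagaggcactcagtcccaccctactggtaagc
Slfn5os shares its exon bases with Unc45b, which encodes a myosin chaperone, as well as with Slfn5, and its window held 129 CDS bases (chr11:82960632-82960931, minus strand).
Slfn5os: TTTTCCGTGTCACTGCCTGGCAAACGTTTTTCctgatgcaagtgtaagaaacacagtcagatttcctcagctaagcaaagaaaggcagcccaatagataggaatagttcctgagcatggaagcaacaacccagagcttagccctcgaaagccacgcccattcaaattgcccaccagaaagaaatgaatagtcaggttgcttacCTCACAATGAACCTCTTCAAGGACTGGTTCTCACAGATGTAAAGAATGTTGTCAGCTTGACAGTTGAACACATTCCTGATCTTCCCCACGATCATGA
Dlx6os2 lies opposite the homeobox gene Dlx6, with 171 CDS bases (chr6:6865101-6865400, minus strand).
Dlx6os2: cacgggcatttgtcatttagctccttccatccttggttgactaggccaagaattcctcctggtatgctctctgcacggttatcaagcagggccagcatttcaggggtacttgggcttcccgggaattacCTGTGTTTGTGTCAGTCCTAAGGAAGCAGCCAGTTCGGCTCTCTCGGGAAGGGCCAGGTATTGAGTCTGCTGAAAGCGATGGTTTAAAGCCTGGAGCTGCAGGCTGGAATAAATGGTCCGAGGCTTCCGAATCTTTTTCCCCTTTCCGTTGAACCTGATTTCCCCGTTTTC
Gm14329 lies opposite Grin2b, an NMDA receptor subunit gene, and all 300 bases of its window were CDS (chr6:135732620-135732919, plus strand).
Gm14329: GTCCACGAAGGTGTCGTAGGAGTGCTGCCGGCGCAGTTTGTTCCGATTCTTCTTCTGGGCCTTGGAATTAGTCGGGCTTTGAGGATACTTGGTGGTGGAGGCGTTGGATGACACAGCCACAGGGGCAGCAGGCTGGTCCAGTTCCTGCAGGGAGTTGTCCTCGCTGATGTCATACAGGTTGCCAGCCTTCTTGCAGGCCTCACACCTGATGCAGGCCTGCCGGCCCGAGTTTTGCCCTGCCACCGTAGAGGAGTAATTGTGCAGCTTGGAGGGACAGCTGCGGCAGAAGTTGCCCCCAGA
The window of 1700125G02Rik, opposite the ephrin receptor gene Epha10, was also CDS over all 300 bases, and in it capitals mark instead the 49 CpG dinucleotides (chr4:124894733-124895032, minus strand).
1700125G02Rik: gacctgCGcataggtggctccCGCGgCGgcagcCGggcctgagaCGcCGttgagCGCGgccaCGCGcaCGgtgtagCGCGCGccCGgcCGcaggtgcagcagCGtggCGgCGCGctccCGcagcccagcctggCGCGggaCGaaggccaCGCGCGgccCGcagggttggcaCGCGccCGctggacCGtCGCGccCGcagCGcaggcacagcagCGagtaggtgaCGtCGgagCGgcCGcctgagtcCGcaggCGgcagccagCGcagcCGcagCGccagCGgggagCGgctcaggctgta
The sequence before the start, where a promoter would be sought, was thus protein-coding on the other strand throughout in the last pair.

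Most remote-start antisense genes lay wholly inside their partner. Of the 759, 499 (65.7%) were nested within the span of the partner with which they shared most bases, 127 (16.7%, 95% Wilson interval 14.2 to 19.6%) overlapped it tail to tail, 108 (14.2%) overlapped it head to head, and 25 (3.29%) contained it. Among the 306 antisense genes with a start near a coding start, 15 (4.90%) were nested and 200 (65.4%) were head to head. The limit removes pairs in which the antisense gene starts within 1000 bases of the partner's 5′ end, so this contrast follows in part from how the genes were chosen. The distance from the start to the nearest coding start had a median of 15811 bases, with quartiles of 5170 and 42934. It was longest for nested genes (median 24344) and shortest for head-to-head genes (median 2042.5), with tail-to-tail genes between them at 15856. In 80 genes the distance was at most 2000 bases, and in 72 it exceeded 100000. The nearest coding start was that of a partner in 434 genes (57.2%), so for the other genes a neighbour that shared no exon base with them was closer.

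**Figure D1:**
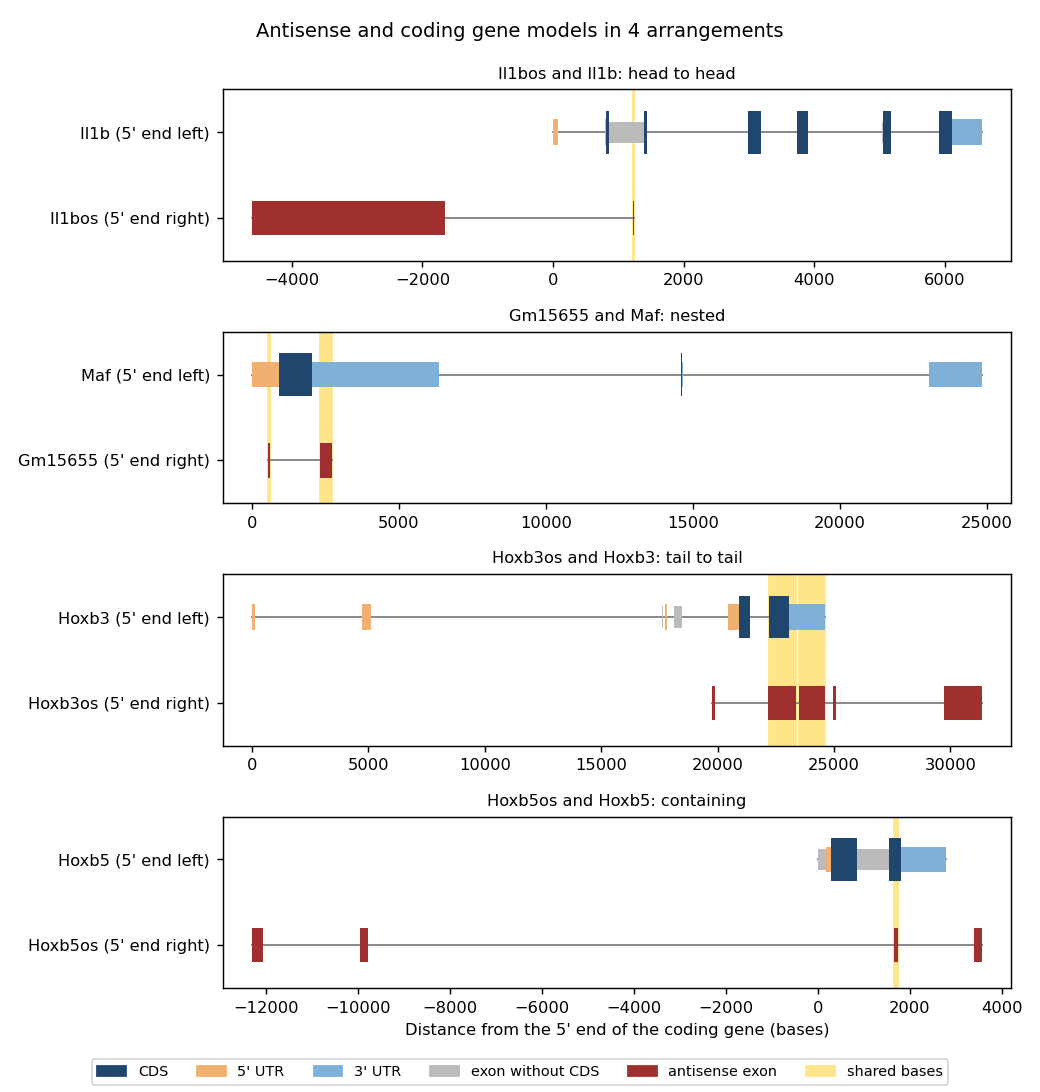
Gene models of 4 remote-start antisense genes and a partner each, drawn against the distance in bases from the partner's 5′ end, with exons merged over transcripts. Il1bos overlaps Il1b head to head over 25 bases, Gm15655 lies with all 440 exon bases inside Maf, Hoxb3os overlaps Hoxb3 tail to tail, and Hoxb5os contains Hoxb5 and shares 100 bases with it. Yellow bands mark the shared exon bases.

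A larger share of the remote-start antisense genes than of those with a start near a coding start lay over CDS, and a smaller share over 5′ untranslated region (UTR). As with arrangement, these contrasts follow in part from the distance limit by which the genes were chosen. At least 1 base was over CDS in 600 of 759 genes (79.1%, 95% Wilson interval 76.0 to 81.8%) against 197 of 306 (64.4%). A 5′ UTR was overlapped in 180 (23.7%) against 205 (67.0%), a 3′ UTR in 177 (23.3%) against 59 (19.3%), and exon bases found in partner transcripts without a CDS alone in 141 (18.6%) against 43 (14.1%). Overlap with CDS and nothing else was found in 320 remote-start genes (42.2%) and 49 of the others (16.0%). Of the 273681 overlapping bases of the 759 genes, 50.4% were CDS, 22.4% 3′ UTR, 15.1% 5′ UTR and 12.0% exons without CDS. Where CDS was overlapped, the median was 147 bases. The amount of overlap was alike in both groups as a share of all exon bases, at 23.4% for remote-start genes and 23.9% for the others.

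**Figure D2:**
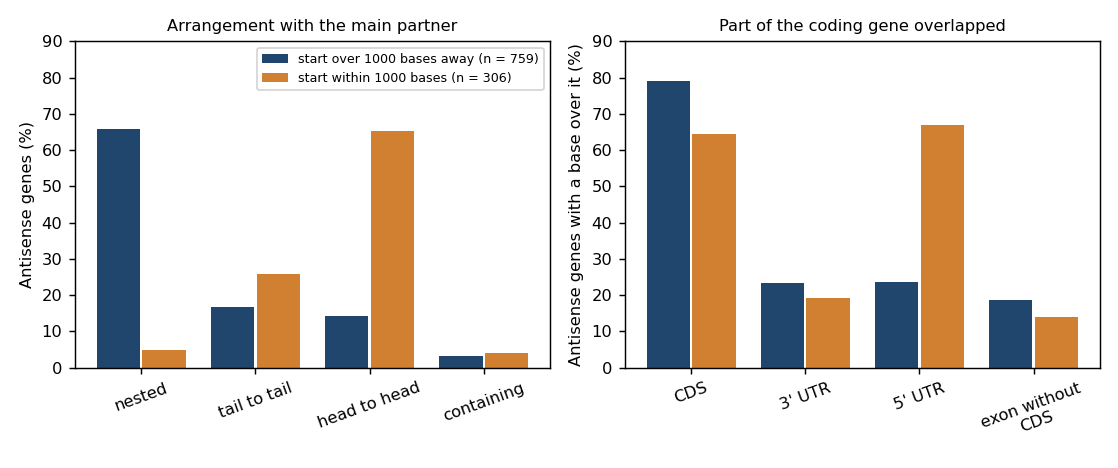
Shares of antisense genes (%, vertical axes) by arrangement with the main partner (left) and by the part of the coding gene with at least 1 overlapped base (right), for 759 remote-start genes and 306 with a start within 1000 bases of a coding start. Nested genes make up 65.7% and 4.90% of the groups, and 5′ UTR is overlapped in 23.7% and 67.0%. A gene can stand in more than 1 bar of the right panel. Both contrasts follow in part from the distance limit that defines the groups.

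Position along the partner differed by arrangement, which follows in part from the definition, since arrangement is set by which ends of the pair overlap. On a scale where 0% is the partner's 5′ end and 100% its 3′ end, the middle of the overlap lay at a median of 64.3% for the 759 genes and 1.83% for the 306 with a near start. This contrast follows in part from the distance limit, which keeps the starts of the 306 genes close to a coding start. Tail-to-tail genes had a median of 95.1%, and 95 of the 127 (74.8%) covered part of the partner's last exon, while 71 (55.9%) reached its 3′ UTR. They started a median of 6761 bases past the partner's 3′ end. Head-to-head genes had a median of 4.45%, and 68 of 108 (63.0%) reached a 5′ UTR. Nested genes had a median of 66.6%, and 411 of 499 (82.4%) lay over CDS. The start itself was inside a partner exon in 261 genes (34.4%), inside a partner intron in 346 (45.6%) and past its 3′ end in 152. In 127 genes (16.7%) the first transcribed base was a CDS base of the other strand.

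**Figure D3:**
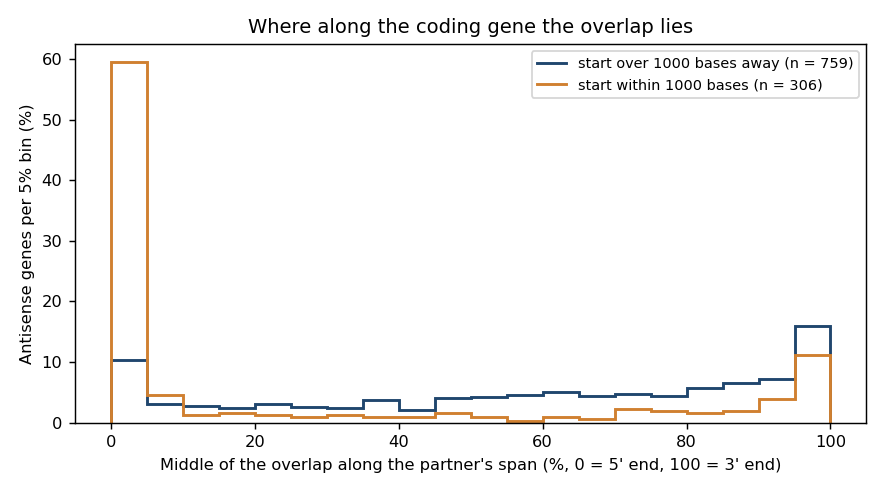
Middle of the exon overlap along the partner's span (horizontal axis, %, 0 at the 5′ end) against the share of antisense genes per bin (vertical axis, %). The line of the 306 near-start genes is highest in the bin at the 5′ end, and that of the 759 remote-start genes has its highest bin at the 3′ end, with medians of 1.83% and 64.3%. The contrast follows in part from the distance limit that defines the groups.

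Most overlaps were short beside the antisense gene that carried them. The number of overlapping bases ranged from 2 to 5142, with quartiles of 121.5 and 454.5 and a median of 246. As a share of the gene's own exon bases, the median was 24.8%, with quartiles of 12.2% and 45.9%. At least 50% of the exon bases lay over the partner in 177 genes (23.3%), and the longest stretch free of opposite coding exons had a median of 383 bases. In 514 genes (67.7%) a single merged exon of the partner was touched, in 159 there were 2, and in 86 there were 3 or more. A whole merged exon of the partner lay inside an exon of the antisense gene in 263 (34.7%).

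The genes with most overlapping bases differed in what they covered. A630072M18Rik, a single-exon gene on chromosome 5 (20950989 to 20956398, plus strand), shared 5142 bases with Rsbn1l, of which 4613 were 5′ UTR and 529 CDS. Hoxb3os (chromosome 11, 96343072 to 96354691, minus strand) shared 3203 bases, 1424 of CDS and 1779 of 3′ UTR, with Hoxb3 and Hoxb2, which encode homeobox factors that pattern the hindbrain. Gm37915 shared 2427 bases with Mfsd9, of which 1715 were 3′ UTR. Zfhx2os shared 2365 with the zinc finger homeobox gene Zfhx2, of which 1726 were CDS, and D030055H07Rik shared 2203 with Glyctk, the glycerate kinase gene it contains, of which 1505 were CDS. The remaining genes with most CDS bases were Gm37446, with 1745 over the protocadherin gene Pcdhb12, and Gm4409, with 1543 over Lrrtm4, which encodes a synaptic adhesion protein. At the other end, 47 genes (6.19%) shared fewer than 50 bases.

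A group of 44 genes (5.80%) had no exon base of their own outside opposite coding exons. All 44 were nested, as a gene covered fully by exons of 1 partner must be by definition. Of these, 39 had 2 exons, and their median spliced length was 478 bases. Transcript support level is Ensembl's grade for the evidence behind a transcript, from 1 (best) to 5. Of the 40 fully covered genes with a grade, 2 had level 1 and 18 (45.0%) had level 5, against 350 (49.8%) and 95 (13.5%) among the 703 graded remote-start genes as a whole. Related to this, 109 of the 721 genes with more than 1 exon (15.1%) had an intron lying wholly within an opposite merged exon. Level 1 was given to 40 of 106 graded genes with such an intron (37.7%) and to 310 of 597 without one (51.9%). The part of model quality in these overlaps was not tested. An intron with the same 2 ends as an intron of an opposite coding gene was found in 1 of the 721, Gm12359, which lies opposite Casc3 and Msl1.

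**Figure D4:**
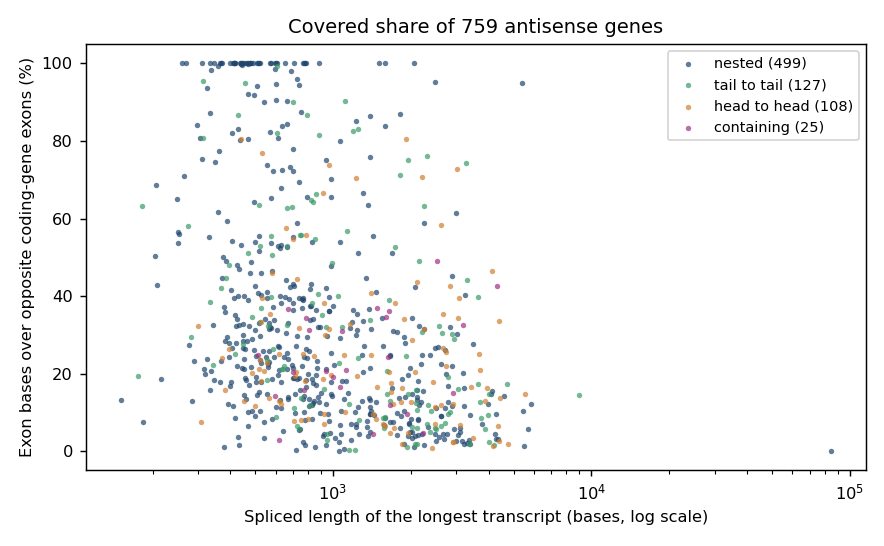
Spliced length of the longest transcript (horizontal axis, bases, log scale) against the share of exon bases over opposite coding-gene exons (vertical axis, %), with 1 point for each of the 759 genes, coloured by arrangement. The 44 points at 100% are all nested, which full cover by 1 partner implies, and have a median length of 478 bases, against 835 for all 759.

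In structure the 759 genes were short and had few exons. Spliced length of the longest transcript had a median of 835 bases (quartiles 538.5 and 1827), against 991 in the 306 near-start genes and 696 in the 947 antisense genes over no opposite coding exon. The median number of exons was 3, and 338 genes (44.5%) had 2, close to the 45.6% of the 947 genes. Single-exon genes made up 5.01%, against 16.0% of the near-start genes and 4.33% of the 947. All 759 carried lines from the manual annotation havana, and 567 (74.7%) had 1 transcript. The longest was Kcnq1ot1 at 84395 bases, followed by RP24-68G17.4 at 8927 (opposite Lrrc40), Gm26648 at 5831 (Nub1), Gm20631 at 5697 (Hmcn1) and 6330403L08Rik at 5522 (Pdgfa, a growth factor gene). Most exons were found in Gm37459 with 10, then in 4930419G24Rik and Bcas1os2 with 8 each, and the first 2 of these 3 both lay opposite Pex5l, a relative of the peroxisomal import receptor gene. Most transcripts, 7 each, were found in A830082K12Rik (opposite the nuclear receptor gene Nr2f1), Rab10os and Uckl1os.

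The partners were 752 coding genes, or 3.61% of the 20826 on these chromosomes, and this share is the background for every list below. Of the 752, 718 had 1 remote-start antisense gene, 33 had 2 and 1 had 3. The last was Atp10b, a phospholipid flippase gene, opposite Gm12144, Gm12146 and Gm12147. Partners were long and had many exons, with a median span of 43433.5 bases and 12 exons, against 16701 bases and 7 exons for all coding genes. A longer gene offers more room for an overlap away from its start, but the part of length in these overlaps was not tested. Of the 759 antisense genes, 733 had 1 partner, 24 had 2 and 2 had 3. Those 2 were Gm29430 and Hoxaas3 in the Hoxa cluster. Of genes named with the ending os or as, 99 carried the name of a coding gene on these chromosomes, and in all 99 that gene was among the exon partners.

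Among the lists of macrophage biology, Il1b and Maf were the genes with a remote-start antisense gene. In the list of LPS response genes it was 1 of the 27 found (3.70%), Il1b, and in the list of macrophage identity genes 1 of 18 (5.56%), Maf. No partner was found among 18 genes of the LPS receptor pathway, 23 interferon response genes and 13 markers of other cell types. Both list shares that were not 0 rest on 1 gene. Il1bos (ENSMUSG00000074805, chromosome 2, 129369897 to 129375748, plus strand) had 3 transcripts and a longest spliced length of 2425 bases. Its start lay 1242 bases inside Il1b, and the overlap was 25 bases, all of them in exons that belong to Il1b transcripts without a CDS. It therefore shared no base with CDS or UTR of Il1b in this annotation. Gm15655 (ENSMUSG00000086717, chromosome 8, 115705078 to 115707233, plus strand) was the opposite case. All 440 of its exon bases were in an exon of Maf, a transcription factor gene of macrophages, with 401 in 3′ UTR and 39 in 5′ UTR, and its intron spanned the CDS of that exon.

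Further partners with immune functions, named after their values were seen, had overlaps of several kinds. Gm20496 shared 351 bases with Psmb8, an immunoproteasome subunit gene, and Tap2, an antigen peptide transporter gene. Gm19412 shared 711 bases with Tapbp, which encodes a peptide-loading chaperone of MHC class I, and Zbtb22. Dhx58os shared 141 CDS bases with Dhx58, a gene of the RIG-I-like receptor family, from the tail side. Faddos shared 239 CDS bases with Fadd, a death receptor adaptor gene. Gm28914 shared 159 bases, 40 of them CDS, with Ikbke, an interferon-inducing kinase gene. Gm12214, opposite the cytokine gene Il5, Gm12534, opposite Il21, and Gm17041, opposite the cytokine signalling inhibitor Cish, were among the fully covered genes, with 417, 469 and 479 exon bases.

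Developmental transcription factors (homeobox, Sox, Pax, Gata, Fox and related symbols) had a remote-start antisense gene in 23 of 171 cases (13.5%), against 3.61% of all coding genes. Of these, 9 were Hox genes in 3 clusters, and some of them shared an antisense gene, as Hoxb2 and Hoxb3 shared Hoxb3os. Hoxd3os1 shared 347 bases of 5′ UTR with Hoxd3 and Hoxd4, and Hoxb5os shared 100 CDS bases with Hoxb5. Outside the clusters, Dlx1as shared 335 bases of 3′ UTR with Dlx1, Gata5os 258 CDS bases with Gata5, and Sox5os1 1330 bases with Sox5, of which 69 were CDS. In the blood cell factors of the list, Gm13256 shared 155 bases with Gata3 and Gm12462 shared 125 bases with Pax5. This share depended on the distance limit. It was 8.77% (all coding genes 3.23%) with a limit of 2000 bases, 4.09% (2.72%) with 5000, and 7.60% (2.71%) when starts of all transcripts were used. The 171 genes had a median span of 6191 bases, shorter than the 16701 of all coding genes. Genes of the translation machinery had one in 5 of 166 cases (3.01%), among them Rps2 (Snhg9) and Rps10 (Gm15420), both ribosomal protein genes. The symbols of that list also took in the kinase genes Eef2k and Rps6ka1. Those of the developmental list took in Gatad2b, which is not a Gata factor gene and was not among the 23.

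Of 34 well-known antisense RNAs looked up by symbol, 7 were among the 759 under the symbol given in the annotation. Kcnq1ot1 (chromosome 7, 143212155 to 143296549, minus strand) shared 121 CDS bases with the potassium channel gene Kcnq1, or 0.143% of its length, and started 164501 bases from a coding start. Nespas, from the imprinted Gnas locus, shared 988 bases with Gnas, of which 762 were CDS. Igf2os shared 98 bases of 5′ UTR with the growth factor gene Igf2. Zeb2os shared 467 bases with Zeb2, a factor of epithelial to mesenchymal transition, with 374 of them in 5′ UTR. Though remote from the outermost Zeb2 start, it began 18 bases from the start of a Zeb2 transcript. Grin1os shared 1307 bases, 1184 of CDS, with the NMDA receptor gene Grin1, and touched 11 of its merged exons, more than any other of the 759. Nkx2-2os shared 278 CDS bases with the homeobox gene Nkx2-2. Among the others, 5 overlapped no opposite coding exon (Airn, Dlx6os1, Pax6os1, Ttc39aos1 and Csmd2os) and 3 started near a coding start (Wt1os, Emx2os and Uchl1os). Another 7 had a different biotype, and 12 were not found under that symbol. By current symbol, 1 of these 12, Evx1os, is the gene that the annotation calls 5730457N03Rik, which was also among the 759 and shared 73 bases with the homeobox gene Evx1.

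A coding listing from another source was found for 10 of the 759 genes. In 5 of them, a model of RefSeq or unknown source in the same annotation placed a CDS on the antisense gene's own strand and exons. These were Gm10680 (513 bases, opposite the apolipoprotein gene Apoa4), Grin1os (462), Gm16130 (408), Nudt12os (393) and Zeb2os (324), where the number is the length of the longest such CDS in 1 transcript. For Nudt12os, the CDS lines of that model's transcripts together covered 738 exon bases. In another 5 of the 321 genes matched to a RefSeq gene table (1.56%), that table listed the gene as protein-coding. These were Gm867, Gm11100, 4930426D05Rik, Gm12500 and Gm11837. Gm12500 began 29 bases from the start of an Ampd2 transcript, and 4930426D05Rik 920 bases from that of a Klhl14 transcript. No gene had both kinds of listing. An added CDS was found in 0.659% of the 759 genes and in 0.528% of the 947 antisense genes over no opposite coding exon. In the latter group, 11 of 497 matched genes (2.21%) were listed as protein-coding. Exons of 5 of the 759 genes (0.659%) held a small RNA gene, and 4 (0.527%) shared exon bases with a coding gene on their own strand. For the 947 genes these counts were 4 (0.422%) and 2 (0.211%).

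RefSeq start windows were matched to 250 of the 759 genes, with the RefSeq start within 100 bases of the annotated start in 153. It was within 1000 bases in 196, and in the rest it lay farther from the annotated start. CpG observed over expected is low where CpG has been lost through methylation and high at CpG islands. It had a median of 0.304 in the 250 windows. It was 0.621 in the 123 windows of near-start genes, 0.268 in the 390 of antisense genes over no opposite coding exon, and 0.702 in the 615 windows at the starts of the partners themselves. Windows rich in CpG (a ratio of at least 0.6 and GC of at least 50%) made up 45 of 250 (18.0%), 51.2%, 16.4% and 58.4% of these groups in the same order. With RefSeq starts within 100 bases, the shares were 16.3% for remote-start genes, 60.8% for near-start genes and 18.7% for genes over no opposite coding exon. The order of remote-start genes and genes over no coding exon was thus reversed. Near-start genes lie close to coding starts by the rule, and how far their windows share sequence with coding promoters was not measured. The TATA box letters TATAAA, searched on both strands, were in 8.8% of the 250 windows and 13.6% of all 32851 windows of the table. For TGACTCA (AP-1) the shares were 4.8% and 5.20%, and for GAGGAAGT (PU.1) 2.8% and 3.20%, and in the 153 windows with a close RefSeq start the 3 shares were 12.4%, 5.88% and 3.27%. The AP-1 and PU.1 values lay on both sides of those of the table, so no direction is read from them. Both TATAAA values lay below that of the table, and this difference was not tested. The printed Il1bos window held none of the 3. Among the 153 with a close RefSeq start, 61 windows (39.9%) lay in part over an opposite coding exon and 38 (24.8%) over CDS. As a check of the build, CDS pieces in the windows were read in the partner's frame. No stop codon occurred in 4069 codons in frame, against 137 in 4036 and 166 in 4042 in the other frames.

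**Figure D5:**
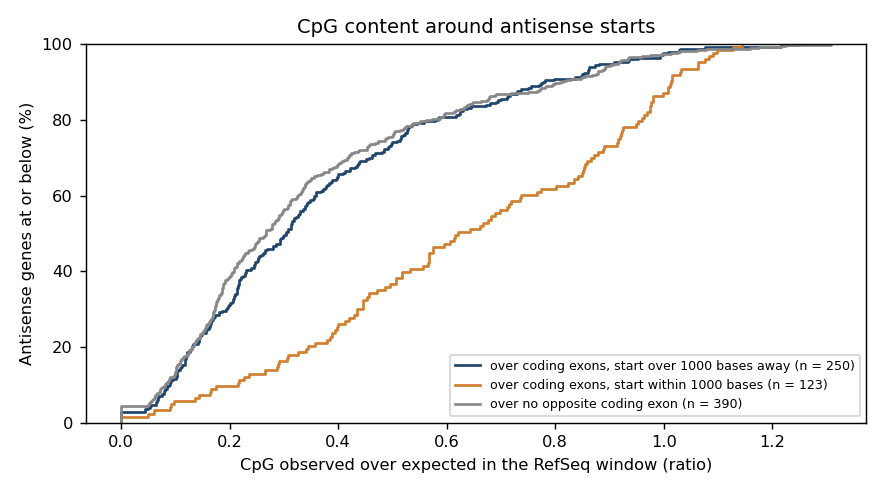
Cumulative share of antisense genes (vertical axis, %) by CpG observed over expected in the RefSeq window matched to them (horizontal axis, ratio). For 153 of the 250 remote-start genes the RefSeq start was within 100 bases of the annotated one. The line of 250 remote-start genes, with a median of 0.304, runs near that of the 390 genes over no opposite coding exon (0.268) and left of the 123 near-start genes (0.621).

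Density along the genome varied. The 19 chromosomes together held 3.64 remote-start antisense genes per 100 coding genes. Chromosomes 1, 3 and 5 had the highest values, at 7.08, 7.05 and 6.79, and chromosomes 7, 13 and 19 the lowest, at 1.44, 1.53 and 1.84. The number of antisense models of any kind differed as well, with 206, 157 and 208 on the first 3 and 85, 56 and 30 on the last 3. Density did not simply follow that number. Chromosomes 2 and 11 had more antisense models, 229 and 215, but 3.99 and 4.67 remote-start genes per 100 coding genes. As a share of the antisense genes of a chromosome, the order was another, with chromosome 15 highest at 53.5%, chromosome 13 lowest at 23.2% and chromosome 19 at 43.3%.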

How the data were processed

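The deposited file is a GTF annotation of 1544831 lines with 0 columns of values per sample. The aligner TopHat2 2.1.1 and build mm10 appear per the submitters' processing notes. The way the annotation was built is not given in these sources. Ensembl lines (source column neither RefSeq nor unknown) were read with Python 3.11.15, pandas 2.3.3, numpy 2.4.6, scipy 1.17.1 and matplotlib 3.10.9. The deposited positions are counted from 1.

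Exons were merged over a gene's transcripts. A gene's 5′ end was its outermost exon base. Each overlapping base was classed as CDS of any partner transcript, otherwise 3′ UTR, 5′ UTR or an exon of a transcript without CDS, with UTRs derived from exon and CDS lines because the deposited UTR lines are not split by side. Arrangement refers to the partner sharing most bases. Overlap code was tested on simulated gene models. Start windows came from RefSeq (GRCm38.p6), matched by symbol, chromosome and strand.

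The genes and lists described were chosen with earlier results of these data known. Named are the genes with most overlap, length, exons, transcripts, CDS bases or partners, those nearest the limit, members of the lists, and those with a coding listing. Other named genes were chosen after their values were seen. Alternatives varied the distance limit, the start used, the minimum overlap, the transcripts, sources and chromosomes counted. For 1 of the gene pairs counted in the lists, the result is not reported here.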

Additional observations from a re-analysis of the deposited data

How the results depend on the processing

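Of 34 alternative values, 24 stayed within tolerance of the reported ones and 10 moved beyond it. The tolerance was a factor of 1.5 for counts, the 95% Wilson interval for shares of genes, 784 to 919 bases for the median length and, chosen after seeing the data, 1 percentage point for the share of bases. The number of genes was 873, 679 and 575 with distance limits of 500, 2000 and 5000 bases, and 568 with starts of all transcripts. It fell to 433 when at least 200 overlapping bases were required. The share of exon bases over opposite coding exons was 21.4% with a limit of 5000 bases and 21.2% with exons of CDS-bearing transcripts alone, which by construction leaves fewer bases to overlap. The share of genes over CDS was 82.6% under that last choice, 75.1% with the CDS of the transcript with the longest CDS alone and 69.7% when at least 50 CDS bases were required. Median spliced length was 928 bases over merged exons and 775 as a median over transcripts. The share of developmental transcription factors with a remote-start antisense gene, 13.5%, was 7.60% with starts of all transcripts and 4.09% with a limit of 5000 bases, both added after seeing the data, and the cause was not tested. No paired analysis was possible because the annotation holds no columns of samples. Depth was not analysed here. Gene models carry no error of their own, and a missing or incomplete model shifts these counts by an amount that was not measured.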
